A study of Mus musculus with 8 samples.

Results

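The transcriptome described here is that of control cultures of mouse dendritic cells, which received the control siRNA si-nc. It rests on 4 of the 8 samples of the series, those whose labels give si-nc as the treatment. The cells came from wild type bone marrow of the strain C57/BL6. They were grown for 6 days with GM-CSF and IL-4, exposed to lipopolysaccharide (LPS) for 24 hours, selected with magnetic beads for CD11c, the surface marker encoded by Itgax, and then kept with spleen stroma cells for 9 days. The labels call the product diffDC, and the title of the series calls such cells regulatory dendritic cells. All 4 samples received every one of these agents, so each level below is that of a state and not of a response to LPS, stroma or siRNA. The labels do not say how the dendritic cells were parted from the stroma before RNA extraction, how long after transfection they were collected, or whether the samples came from separate mice or cultures. Standard deviations (SD) below therefore measure the spread between these 4 samples, which may be technical.

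Dendritic cells take up antigen, cut it in endosomes and in the proteasome, and show the peptides to T cells on MHC class II and class I molecules. LPS, a ligand of Toll-like receptor 4, matures them: co-stimulatory molecules and cytokines rise and uptake declines. Splenic stroma is known from mouse coculture studies to turn mature dendritic cells into cells that restrain T cells, with low class II and high IL-10 among the features reported for them. Genes of these functions were ranked by abundance here, and no test was run, because a single group has nothing to be tested against.

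Levels are given as FPKM, fragments per kilobase of transcript scaled to the library, which allows levels of different genes to be set side by side. Each value after ± is the SD over the 4 samples. The table held 15465 genes. Of these, 10123 (65.5%) had a mean of at least 1 FPKM, the level used below to call a gene detected, and 47 were listed at 0 in all 4 samples. Genes on either side of that level were alike, with Dnm1, Gprasp1 and F3 at a mean of 1 FPKM and Plppr2, Gja1 and Zfp235 at 0.998 FPKM. The columns summed to between 506241 and 532186 FPKM. In a single sample, 10013 to 10177 genes were at 1 FPKM or more. The 100 most abundant genes had shorter transcripts, with a median of 783.5 bases against 1331 bases over the detected genes with a known length. What transcript length does to the ranking was not tested.

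The 4 samples were close to each other but not equally so. Over the detected genes, the median absolute log2 difference, taken on log2(FPKM + 1), was 0.0613 between replicates 1 and 2 and 0.076 between replicates 3 and 4. For the other 4 pairs it lay between 0.115 and 0.13. In 64.8% of the 5445 genes with a mean of at least 10 FPKM, replicates 3 and 4 lay both above or both below replicates 1 and 2. The labels name no batch that would set these samples apart.

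The transcript pool was concentrated in few genes. A group of 222 genes made up 50% of the summed mean FPKM, and 3411 genes made up 90%. The 10 most abundant genes held 18.4 ± 0.384% of a sample's sum, the top 30 held 27.96 ± 0.461%, and the top 100 held 40.1 ± 0.682%. The share of the top 100 was 39.5%, 39.6%, 40.2% and 40.96% in replicates 1 to 4. Among the detected genes, 5445 reached 10 FPKM, 745 reached 100 FPKM and 54 reached 1000 FPKM, and the median was 11.3 FPKM. As a background for the lists below, 53.8% of all detected genes reached 10 FPKM and 7.36% reached 100 FPKM.

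**Figure D1:**
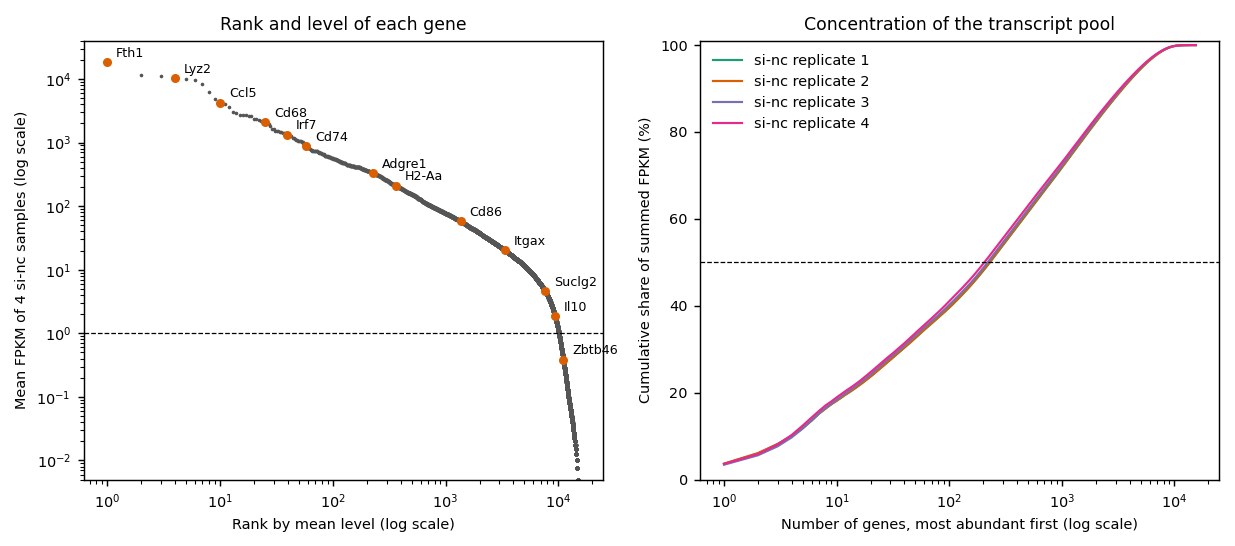
Left, mean FPKM of each gene in the 4 si-nc samples against its rank, both on log scales; orange points are named genes and the dashed line is 1 FPKM. Right, cumulative share of the summed FPKM as genes are added from the most abundant on, with a line for each of the 4 samples and a dashed line at 50%; the lines nearly coincide, and 206 to 230 genes reach 50% in a single sample.

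Ferritin led the ranking. Fth1, the heavy chain of this iron-storing shell, had 18299, 18748, 17657 and 19305 FPKM in replicates 1 to 4, or 3.58% of the summed FPKM, and was the most abundant gene in each of the 4 samples. Ftl1, the light chain, had 12283, 12364, 10357 and 11666 FPKM. The heavy chain was above the light chain in every sample, by 1.59 ± 0.105 times. Ferritin genes have many pseudogenes among which reads can be shared, so their values are uncertain.

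Lysosomal genes were also among the most abundant. The cysteine proteases Ctsb and Ctss stood at 9542 ± 409.8 and 6304 ± 510.4 FPKM (ranks 6 and 8), and the aspartic protease Ctsd at 4916 ± 175 FPKM. Psap, the precursor of the saposins that help lysosomal enzymes reach their lipid substrates, had 8296, 8303, 8331 and 8199 FPKM and hardly varied. Grn, which encodes progranulin, a secreted protein that also serves lysosomes, was at 2323 ± 54.2 FPKM, and Gpnmb, a glycoprotein of late endosomes and lysosomes, at 2642 ± 242 FPKM. Cd68, a lysosomal membrane protein of phagocytes, followed at 2098 ± 48.3 FPKM.

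Genes typical of macrophages also ranked high. Lyz2, the lysozyme of myeloid cells and the fourth gene, had 9566, 9422, 10674 and 11875 FPKM, and Apoe, the lipoprotein component that carries cholesterol out of macrophages, 8588, 8819, 10726 and 11400.2 FPKM. Both were higher in replicates 3 and 4 than in replicates 1 and 2. The 3 genes that encode the chains of C1q, the recognition unit of the classical complement pathway, lay close together, with C1qa at 2187 ± 277 FPKM, C1qb at 2599.97 ± 285 FPKM and C1qc at 2265 ± 297 FPKM. Within a sample, C1qc was 1.04 ± 0.0181 times C1qa and C1qb was 1.19 ± 0.0313 times C1qa, although the sum of the 3 was higher in replicates 3 and 4 (7608 and 7952 FPKM) than in replicates 1 and 2 (6249.8 and 6396 FPKM).

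Class I antigen presentation and a chemokine completed the top of the list. B2m, the light chain shared by class I molecules, had 10907, 10761, 11266 and 11921 FPKM, and the heavy chains H2-D1 and H2-K1 had 3990.2 ± 71.6 and 2934 ± 109 FPKM. Ccl5, a chemokine that draws T cells and monocytes, was the tenth gene, with 3638, 3819, 4644 and 4822 FPKM. The signalling adaptor Fcer1g of Fc and other activating receptors was at 2719 ± 234 FPKM, and the interferon-induced genes Ly6e and Ifitm3 at 3576 ± 114 and 2711 ± 131 FPKM. The cytoskeletal genes Tmsb4x, Actb and Tmsb10, the galectin Lgals3 with its binding protein gene Lgals3bp, the surface antigen Cd52, the membrane protein Itm2b, the translation factor Eef1a1 and the ubiquitin gene Ubb filled the other places among the 30, at 1645 to 3065 FPKM. The top 30 held 0 cytosolic ribosomal protein genes, whereas the top 100 held 20. In a single sample, 29 or 30 of its own 30 most abundant genes were among these 30.

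**Figure D2:**
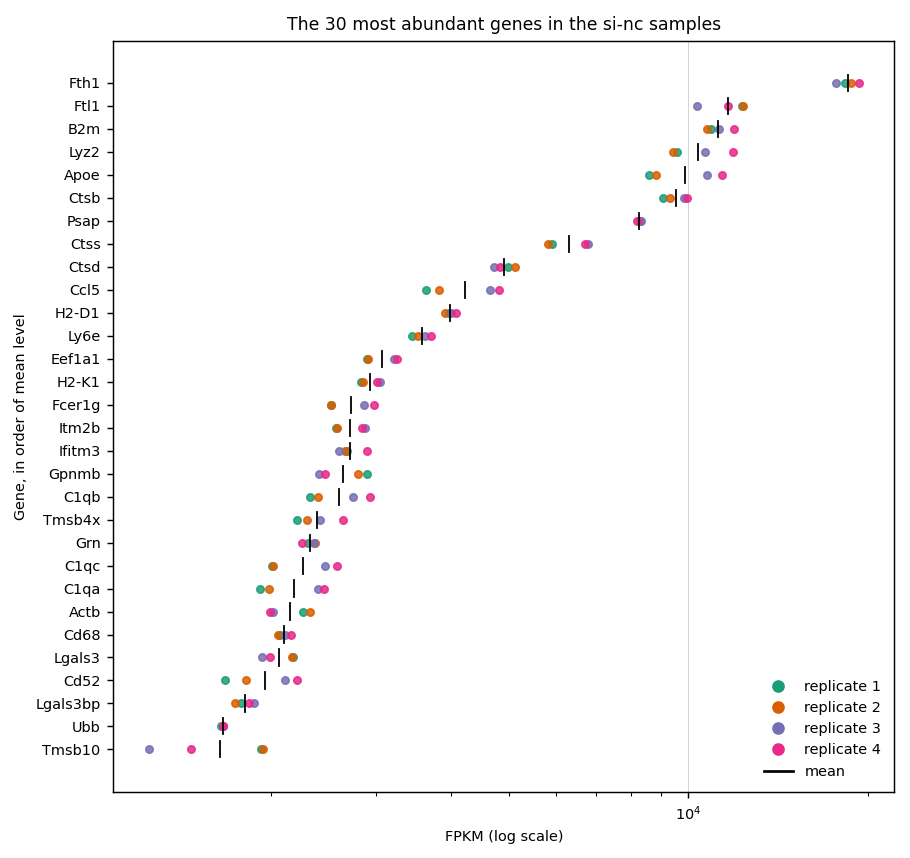
FPKM (log scale) of the 30 most abundant genes in each of the 4 si-nc samples (coloured points) with the mean (black bar), in order of the mean. Fth1 leads in every sample, and Tmsb10 shows the widest relative spread of the 30, with replicates 1 and 2 above replicates 3 and 4.

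Lysozyme is encoded in the mouse by a pair of neighbouring genes of similar sequence, and the level of each depends on how shared reads were assigned. Lyz2 averaged 10384 FPKM and Lyz1 808 FPKM, a ratio of 12.9 ± 0.441 that ranged only from 12.4 to 13.4 over the samples. The 80 bases before the start of each gene are shown to let the promoters of this unequal pair be read side by side (RefSeq, GRCm38.p6, minus strand; Lyz2 at chr10:117282273-117282352 and Lyz1 at chr10:117292869-117292948; the capitals, set by a comparison of the letters, mark the positions at which they differ).
Lyz2: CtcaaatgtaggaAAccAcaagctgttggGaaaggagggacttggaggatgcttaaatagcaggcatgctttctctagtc
Lyz1: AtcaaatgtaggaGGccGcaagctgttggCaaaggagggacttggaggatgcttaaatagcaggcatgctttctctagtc
These stretches shared 75 of 80 bases, and the 50 bases nearest the start were identical. Over the full 250 upstream bases compared without gaps, 152 positions matched.

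The labelled cell type was then set against markers of dendritic cells and of other cells. In bulk RNA, fewer cells of a type and less RNA per cell cannot be told apart. Conventional dendritic cell markers were mostly low. This list had 18 entries, and those without a value, among them Xcr1 and Irf4, could not be ranked. Counts for the other lists are likewise of members with a value. Of 13 with a value, 6 were detected, led by Sirpa (592 ± 20.04 FPKM), which macrophages also carry, Irf8 (71.2 ± 7.23 FPKM), Itgax, the gene of the bead selection (22.1, 22.6, 16.4 and 19.7 FPKM in replicates 1 to 4, rank 3368), Wdfy4 (14.8 ± 1.502 FPKM), Clec10a (12.6 ± 4.62 FPKM) and Batf3 (1.21 ± 0.498 FPKM). The other 7 with a value were below 1 FPKM. Flt3, the growth factor receptor that conventional dendritic cells need, was at 0.085 ± 0.0311 FPKM, the lineage factor Zbtb46 at 0.383 ± 0.083 FPKM and the necrotic cell receptor Clec9a at 0.128 ± 0.034 FPKM. Cadm1 (0.552 FPKM), Kit (0.268 FPKM), Snx22 (0.225 FPKM) and Itgae (0.0675 FPKM) were also below 1 FPKM.

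Genes of mature, migrating dendritic cells were mixed. Of 18 with a value, 14 were detected, with a median of 13.9 FPKM. Ccl5, the tenth gene of the ranking, is on this list and was its highest member by far. Marcks and Marcksl1 stood at 122 ± 3.98 and 101.01 ± 5.35 FPKM, Cd83 and Cd86 at 56.5 ± 10.1 and 57.8 ± 2.92 FPKM, Relb at 27.6 ± 0.931 FPKM and the chemokine gene Ccl22 at 15.6 ± 2.32 FPKM. Cd40 and Cd80 had 11.4 ± 1.04 and 10.8 ± 0.818 FPKM, and Fscn1, which bundles actin in dendrites, 12.2 ± 1.88 FPKM. Ccr7, the receptor that guides mature dendritic cells to lymph nodes, was at only 4.67 ± 1.19 FPKM, Cacnb3 at 4.303 ± 0.976 FPKM, Socs2 at 1.52 ± 0.134 FPKM and Il12b, a subunit of IL-12 and IL-23, at 1.33 ± 0.466 FPKM. Nudt17 (0.515 FPKM), Tnfrsf4 (0.417 FPKM), Il4i1 (0.407 FPKM) and Ccl17 (0.223 FPKM) were below 1 FPKM.

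Macrophage markers were abundant. Of 23 with a value, 21 were detected, 15 of them at 100 FPKM or more, with a median of 354 FPKM against 11.3 FPKM over all detected genes. Beside Lyz2, Apoe, Ctsd, Gpnmb, the C1q genes and Cd68, these included Ms4a7 (1116 ± 169 FPKM), the M-CSF receptor Csf1r (489.8 ± 79.8 FPKM), the high-affinity IgG receptor Fcgr1 (354 ± 7.38 FPKM), the lipid-sensing receptor Trem2 (353 ± 29.8 FPKM), Adgre1, which encodes F4/80 (305, 297, 368 and 363 FPKM in replicates 1 to 4) and Cd14 (103 ± 9.35 FPKM). Adgre1 exceeded Itgax in every sample, by 13.1 to 22.4 times. Itgam (97.6 ± 3.49 FPKM), Mertk (62.96 ± 2.03 FPKM) and Mrc1 (37.2 ± 2.71 FPKM) were lower, and Spic (9.84 ± 1.63 FPKM), Vcam1 (4.47 ± 1.04 FPKM) and Cx3cr1 (4.37 ± 1.96 FPKM) lower still. Timd4 (0.323 FPKM) and Cd163 (0.102 FPKM), markers of resident macrophages, were below 1 FPKM. The median of detected members was thus 354 FPKM on this list and 17.5 FPKM on the conventional dendritic cell list. Members that several myeloid cell types share were not removed from either list, and the lists were written with earlier results of these data known. Which cell type the cultures held was not tested, so they are called the si-nc cultures below.

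Monocyte markers were uneven, with 10 of 11 detected. Ms4a4c and Ly6c2 reached 688 ± 40.9 and 203 ± 43.6 FPKM, and Ccr2 and Ly6c1 28.3 ± 6.39 and 12.7 ± 1.87 FPKM. Chil3, Spn, Plac8, Nr4a1 and Vcan lay at 2.85 to 5.86 FPKM, and Cd177 was at 0.01 FPKM.

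Other lineages gave little signal in their defining genes. The T cell receptor complex genes Cd3e and Cd3d were at 0.025 and 0.045 FPKM, and Cd8a, Cd8b1, Cd2, Lck, Tcf7 and Zap70 were at 0.0075 to 0.405 FPKM. By contrast Il7r, Cd28 and Cd4, which are on the same list, were at 60.6 ± 14.9, 10.8 ± 0.725 and 9.63 ± 2.795 FPKM. The B cell list had 12 entries, of which 5 had a value. Of these, Cd22 alone was detected, at 18.4 ± 2.46 FPKM. Pax5, Cd79a, Ms4a1 and Jchain were at or below 0.0975 FPKM. Among killer cell genes Klrk1 was at 1.84 ± 0.381 FPKM, and Gzmb, Eomes, Prf1 and Klrb1c were at or below 0.445 FPKM.

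Granulocyte markers were low apart from a pair of genes. Csf3r, the G-CSF receptor gene, was at 105 ± 15.9 FPKM and Mmp8 at 13.4 ± 2.99 FPKM, whereas S100a8 was at 1.18 FPKM and the other neutrophil genes Mmp9, Cxcr2, Ngp, S100a9, Ltf, Prtn3, Camp, Mpo, Ctsg and Ly6g were at 0.0225 to 0.657 FPKM. The mast cell proteases Cma1 and Cpa3 reached 3.12 ± 0.485 and 1.58 ± 0.236 FPKM, with Tpsb2, Fcer1a, Gata2, Mcpt8, Ms4a2 and Mcpt4 at or below 0.8 FPKM. The eosinophil gene Ear2 was at 1.73 ± 0.914 FPKM, and Ear1, Il5ra, Ear6 and Prg2 were at or below 0.445 FPKM.

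The plasmacytoid marker Bst2, which interferon induces in many cells, was at 1065 ± 24.02 FPKM, followed by Tcf4 at 9.76 ± 0.719 FPKM and Cox6a2 at 8.75 ± 1.64 FPKM, with Spib, Pacsin1 and Ccr9 at or below 0.182 FPKM. Among erythroid genes the transferrin receptor Tfrc was at 5.55 ± 0.324 FPKM, and the globin genes Hba-a1, Hbb-bt and Hba-a2, like Klf1, Epor and Alas2, were at or below 0.36 FPKM. The platelet chemokine gene Pf4, which monocytes can also express, was at 27.8 ± 3.73 FPKM, and Treml1, Gp1ba, Itga2b and Ppbp were at or below 0.275 FPKM. Of epithelial genes, Krt14 was at 5.897 ± 1.83 FPKM and Krt19 at 1.33 ± 0.301 FPKM, with Krt8, Krt18, Cdh1, Krt5, Epcam and Cldn4 at or below 0.45 FPKM. Kdr and Eng reached 25.1 ± 3.398 and 20.3 ± 1.43 FPKM, while the other endothelial genes, Stab2, Cdh5, Egfl7, Tek, Tie1 and Plvap, were at or below 0.323 FPKM.

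Markers of stroma were mostly low, and which cells made these transcripts was not tested. Apart from Vim (751 ± 74.6 FPKM) and Thbs1 (260.5 ± 16.1 FPKM), which macrophages also express, 10 of 19 stroma and fibroblast markers were detected. Bgn, a matrix proteoglycan, was at 24.6 ± 9.04 FPKM, Pdpn at 20.6 ± 2.87 FPKM, Fn1 at 8.64 ± 3.18 FPKM, Col1a1 at 5.86 ± 2.55 FPKM, Sparc at 5.5 ± 1.82 FPKM and Dcn at 5.48 ± 1.44 FPKM, with Col6a1, Col6a2, Col3a1 and Col1a2 at 1.88 to 4.09 FPKM. The 19 genes summed to 95.9, 113, 53.4 and 78.1 FPKM in replicates 1 to 4, or 0.0165% of the total. Their sum was highest in replicate 2 and lowest in replicate 3. With Vim and Thbs1 counted, the list held 0.212% of the total. Shared members were left out in this way for no other marker list. The fibroblast receptor Pdgfra was at 0.0075 FPKM, and Fbn1, Col5a1, Acta2, Pdgfrb, Postn, Thy1, Lum and Des were at 0.0025 to 0.958 FPKM. Proliferation genes were low, with 17 of 20 detected at a median of 3.83 FPKM, Mki67 at 2.04 ± 0.962 FPKM, and only Pcna (115 ± 6.35 FPKM) and Mcm6 (14.8 ± 1.58 FPKM) above 10 FPKM. The other members, from Mcm3 (8.69 FPKM) and Stmn1 (8.66 FPKM) through Mcm5, Mcm2, Tyms, Birc5, Top2a, Cdk1, Aurka, Rrm2, Aurkb, Ccna2, Plk1 and Ccnb1 (1.34 FPKM) to Ccnb2, Bub1 and Hist1h1b (0.03 FPKM), were lower.

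**Figure D3:**
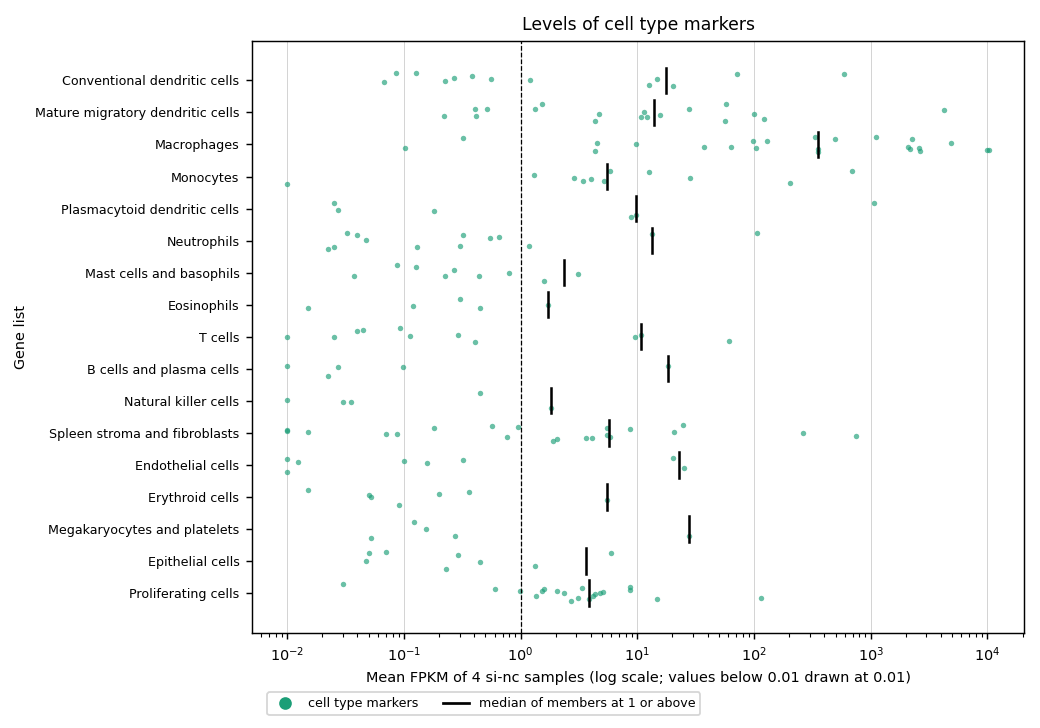
Mean FPKM (log scale) of each gene of the cell type marker lists in the si-nc samples; points are genes, black bars the median of members at 1 FPKM or above, and the dashed line is 1 FPKM. Most macrophage markers lie above 100 FPKM, whereas conventional dendritic cell markers spread from below 0.1 FPKM to Sirpa at 592 FPKM.

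Receptors were examined in 10 lists that together held 293 genes with a value. Of these, 215 were detected at a median of 34.1 ± 2.601 FPKM, and 61 (28.4% of the detected ones) reached 100 FPKM. The highest were signalling adaptors and lysosomal proteins: Fcer1g, Cd68 and Tyrobp, the adaptor of Trem2 and other paired receptors, at 1488 ± 89.95 FPKM.

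The Toll-like receptors with the highest levels were endosomal ones. Tlr13 (bacterial ribosomal RNA) had 121, 122, 103 and 91.3 FPKM, Tlr7 (single-stranded RNA) 113, 104, 102 and 95.96 FPKM, Tlr9 (unmethylated DNA) 86.005 ± 6.29 FPKM and Tlr8 59.03 ± 8.94 FPKM. Unc93b1, the chaperone that carries these receptors to endosomes, was the highest of the list at 553 ± 36.8 FPKM. Endosomal Tlr3, a receptor of double-stranded RNA, was lower at 20.98 ± 3.46 FPKM. At the surface, Tlr2 lay within the spread of Tlr8 at 58.8 ± 7.54 FPKM, its partner Tlr1 was at 39.7 ± 4.81 FPKM, while Tlr4, the LPS receptor, was at 14.6 ± 1.78 FPKM and highest in replicate 1. Of its co-receptors, Cd14 exceeded Tlr4 in every sample and Ly96 was at 34.1 ± 2.74 FPKM. The related pair Cd180 and Ly86 was abundant, at 442 ± 73.5 and 221 ± 20.5 FPKM. The flagellin receptor Tlr5 and Tlr12 were below 1 FPKM. All 15 cytosolic sensor genes with a value were detected, led by the nucleic acid sensor Zbp1 (366 ± 9.804 FPKM), the RNA sensor Ddx58 (103 ± 9.31 FPKM) and its regulator Dhx58 (92.2 ± 4.42 FPKM). The DNA sensor Cgas was at 4.902 ± 0.296 FPKM and its partner Tmem173, which encodes STING, at 45.1 ± 8.38 FPKM.

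Receptors for uptake were examined in the lectin and scavenger lists. Among C-type lectins, 18 of 22 were detected, led by Clec4a1 (481 ± 49.1 FPKM), Clec4n, which encodes the fungal receptor dectin-2 (415 ± 22.8 FPKM), and Clec12a, a receptor for dead cells (333 ± 19.1 FPKM). The beta-glucan receptor Clec7a followed at 307 ± 23.1 FPKM, and the antigen uptake receptor Ly75 (DEC-205) was at 3.45 ± 0.575 FPKM. The Clec4a genes lie in a cluster of similar sequence, so their separate values are uncertain. Among scavenger and phagocytic receptors, 14 of 21 were detected (66.7%, near the share of the whole table) and 3 reached 100 FPKM. Cd68 was followed by Axl, a receptor for dying cells (318, 309.7, 351 and 334 FPKM), the membrane chemokine Cxcl16 (307 ± 54.9 FPKM) and Cd36 (94.8 ± 26.5 FPKM). Axl exceeded Mertk, its relative, by 5.21 ± 0.159 times, and Tyro3, the remaining member of this receptor family, was at 0.193 FPKM. Marco was at 20.8 ± 3.18 FPKM.

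Fc and complement receptors had a median of 107 FPKM over 15 detected genes, close to that of paired receptors (98.9 FPKM), and over all members with a value their median was the lower of the pair, at 81.5 against 96.9 FPKM. C3ar1 and C5ar1, receptors of the complement peptides C3a and C5a, were at 412 ± 16.5 and 107 ± 5.299 FPKM. The activating IgG receptors Fcgr1, Fcgr3 and Fcgr4 were at 354, 322 and 252 FPKM. Fcgr2b, the inhibitory one, was at 296, 294, 426 and 439 FPKM, below Fcgr1 in replicates 1 and 2 and above it in replicates 3 and 4. Of 33 paired receptor genes, 31 were detected. The inhibitory receptors Sirpa, Lilrb4a and Pirb were at 592, 549.6 ± 91.4 and 349 ± 7.39 FPKM, and the sialic acid receptor Siglec1 at 294 ± 20.6 FPKM. Siglece was at 2.797 ± 0.735 FPKM. Lilr4b and the Pira genes are near copies of their neighbours and their levels are uncertain.

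Chemokine and chemoattractant receptors were detected less often than genes of the whole table. Of 29 with a value, 14 were detected (48.3%, against 65.5% of the table). The detected ones had a median of 26.9 FPKM, against 11.3 FPKM over all detected genes. Among the most abundant were Cxcr4 (137 ± 32.9 FPKM), the platelet-activating factor receptor Ptafr (135 ± 5.29 FPKM) and the chemerin receptor Cmklr1 (103 ± 6.86 FPKM). Ccr7 ranked 7590 among all genes.

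Of 76 cytokine and growth factor receptor genes with a value, 54 were detected. Csf1r was highest, with 426, 416, 549.6 and 568 FPKM in replicates 1 to 4 and higher values in replicates 3 and 4. Il2rg, the common gamma chain, had 469, 488, 499.97 and 488 FPKM. Il18bp, the secreted antagonist of IL-18, was at 375 ± 26.1 FPKM and the TNF receptor gene Tnfrsf1b at 278 ± 8.79 FPKM. The GM-CSF receptor chains Csf2ra and Csf2rb were near each other at 119 ± 6.44 and 100.9 ± 4.22 FPKM, and Csf2rb2 at 108 ± 2.09 FPKM, though Csf2rb and Csf2rb2 are near copies. Il4ra, which binds the other cytokine of the culture, was at 48.5 ± 6.08 FPKM. The IL-10 receptor was carried by Il10rb at 205 ± 6.71 FPKM and Il10ra at 76.9 ± 7.59 FPKM. Of the interferon receptors, Ifnar2 stood at 164 ± 8.91 FPKM, Ifnar1 at 26.96 ± 2.19 FPKM, Ifngr2 at 124 ± 9.38 FPKM and Ifngr1 at 96.4 ± 12.3 FPKM. Il1rn, the IL-1 receptor antagonist, was at 64.5 ± 16.4 FPKM, whereas the IL-1 receptor Il1r1 was at 0.305 FPKM.

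The list of purine, lipid and metabolite receptors also held Adgre1, given above as a macrophage marker, which was its highest member. Its nucleotide receptors were led by the ATP channel P2rx4 (237 ± 13.2 FPKM) and the UDP receptor P2ry6 (116 ± 12.3 FPKM). The UDP-glucose receptor P2ry14 followed (111 ± 2.77 FPKM). The ATP channel P2rx7 of the inflammasome pathway was at 25.1 ± 2.16 FPKM and the proton sensor Gpr65 at 85.7 ± 0.298 FPKM. Itgb2, the beta chain of the leukocyte integrins, was at 299 ± 6.72 FPKM. Among its alpha chains, Itgam exceeded Itgax by 4.88 ± 0.566 times, and Itgal was at 40.05 ± 5.84 FPKM. The other integrin genes were led by the beta chains Itgb1 (116 ± 7.84 FPKM) and Itgb5 (86.3 ± 5.96 FPKM).

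**Figure D4:**
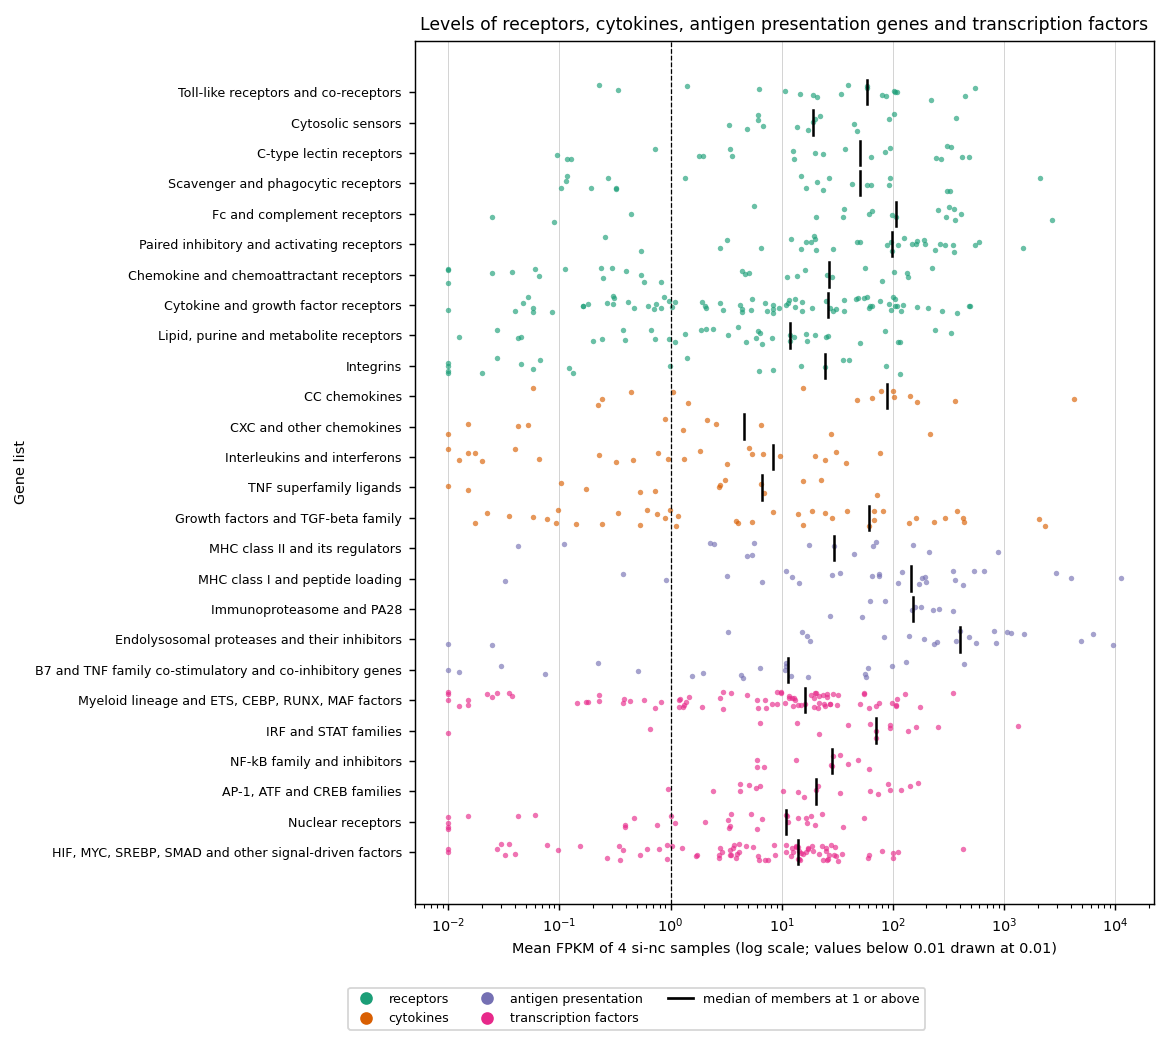
Mean FPKM (log scale) in the si-nc samples of each gene of 26 lists, coloured by class; black bars are medians of members at 1 FPKM or above and the dashed line is 1 FPKM. Endolysosomal proteases have the highest median, at 398 FPKM, and CXC chemokines the lowest, at 4.54 FPKM.

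Of 105 cytokine, chemokine and growth factor genes with a value, 63 were detected, and Ccl5, Grn and Lgals3 held most of their transcripts. The class made up 2.49 ± 0.019% of the summed FPKM, of which Ccl5 alone held 0.818%. Among CC chemokines, Ccl5 was followed at a distance by Ccl6 (359.8 ± 13.9 FPKM), Ccl3 (166 ± 10.7 FPKM), Ccl4 (143 ± 21.8 FPKM), Ccl9 (103 ± 1.303 FPKM) and Ccl12 (100.3 ± 14.7 FPKM). Ccl2, Ccl7 and Ccl8, which attract monocytes, were at 77.8 ± 17.4, 65.5 ± 15.6 and 47.2 ± 16.1 FPKM. Ccl2, Ccl7 and Ccl12 are similar neighbours, as are Ccl3 and Ccl4. The dendritic cell chemokine Ccl22 was detected at 15.6 FPKM and its relative Ccl17 at 0.223 FPKM. Of CXC chemokines, Cxcl10, induced by interferon, had 229.8, 232, 198 and 199 FPKM, higher in replicates 1 and 2 than in 3 and 4, in contrast to Ccl5. The neutrophil attractants Cxcl1 and Cxcl2 were at 6.51 ± 2.13 and 2.56 ± 0.385 FPKM.

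Interleukin genes were sparse. Of 24 with a value, 12 were detected (50%, against 65.5% of the table), at a median of 8.29 FPKM, and none reached 100 FPKM. The highest was Ebi3, a subunit of IL-27 and IL-35, with 74.2, 78.3, 74.01 and 78.9 FPKM. Its IL-27 partner Il27 was at 5.43 ± 0.217 FPKM. Il15, Il18 and Il1f9 (IL-36 gamma) were at 37.8 ± 1.62, 30.9 ± 2.93 and 24.5 ± 1.79 FPKM, and Il1b at 19.9 ± 4.59 FPKM. Il10 was low, with 1.61, 1.68, 2.05 and 2.08 FPKM in replicates 1 to 4 and a rank of 9342. Ifnb1, the interferon beta gene, was at 3.22 ± 0.458 FPKM. Il12b was at 1.33 FPKM, Il6 at 0.948 FPKM and Il23a at 0.0175 FPKM.

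TNF family ligands were led by Tnfsf12 (TWEAK, 71.8 ± 2.22 FPKM), Tnfsf13 (APRIL, 22.4 ± 0.991 FPKM) and Tnf (15.3, 15.8, 16.2 and 14.4 FPKM in replicates 1 to 4). Growth factors and secreted lectins held more transcripts. After Grn and Lgals3 came Lgals9 (437 ± 12.3 FPKM), osteopontin (Spp1, 425 ± 41.6 FPKM), Lgals1 (380.1 ± 38.2 FPKM), Mfge8, which bridges dying cells to integrins (297 ± 68.03 FPKM), and Tgfb1, a cytokine that restrains T cells (233, 234, 227 and 246 FPKM). Tgfb1 varied little and was above Il10 by a wide margin in every sample. Gas6, the ligand of Axl and Mertk, was at 140.2 ± 5.82 FPKM, 0.427 ± 0.0112 times Axl. Csf1, the ligand of Csf1r, was at 15.7 ± 2.66 FPKM and Csf2, which encodes GM-CSF, at 0.892 FPKM.

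Antigen presentation genes, a class that here included endolysosomal proteases and their inhibitors, made up 10.6 ± 0.184% of the summed FPKM. That protease list alone held 5.601%. MHC class I and peptide loading genes held 4.215%, and class II genes with their regulators 0.289%. Of 97 genes of the whole class with a value, 84 were detected, at a median of 91.6 FPKM, and 48.8% of these reached 100 FPKM. That last share was 76.2% on the protease list, 58.3% on the class I list and 23.1% on the class II list. Class I transcripts far exceeded class II transcripts. The heavy chains H2-D1 and H2-K1 summed to 6924 ± 168 FPKM, and the class II chains H2-Aa, H2-Ab1 and H2-Eb1 to 428 ± 60.3 FPKM, a ratio of 14.7 to 18.6 within a sample. B2m exceeded H2-D1 by 2.81 ± 0.0819 times.

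Genes that supply peptides to class I were also abundant. The peptide transporter genes Tap1 and Tap2 were at 182 ± 5.59 and 75.7 ± 4.38 FPKM and Tapbp, which encodes tapasin, at 347 ± 6.53 FPKM. Other class I genes, among them H2-T23 (658 ± 22.9 FPKM), H2-T22 (537 ± 18.2 FPKM) and H2-Q4 (360.1 ± 17.3 FPKM), belong with H2-D1 and H2-K1 to a family of similar genes, so their values are uncertain. The immunoproteasome subunits, which replace constitutive ones under interferon, were the more abundant of each pair. Psmb8 exceeded Psmb5 by 4.18 ± 0.252 times, Psmb10 exceeded Psmb7 by 1.75 ± 0.112 times and Psmb9 exceeded Psmb6 by 1.15 ± 0.0431 times, in each of the 4 samples. The proteasome activator subunits Psme1 and Psme2 stood at 346 ± 17.4 and 228 ± 13.002 FPKM.

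Class II genes were present at moderate levels. H2-Aa had 179.8, 191, 242 and 229 FPKM, H2-Ab1 132, 137, 163 and 174 FPKM and H2-Eb1 54.8, 58.3, 74.9 and 77.03 FPKM. All 3 were higher in replicates 3 and 4 than in replicates 1 and 2, with no overlap. Cd74, the invariant chain that guides class II to endosomes, was at 810.01, 843, 933 and 946 FPKM, or 4.22 ± 0.29 times H2-Aa. The peptide editor chains H2-DMb1 and H2-DMa were at 70.9 ± 3.19 and 44.3 ± 5.44 FPKM. Marchf1, a ubiquitin ligase that removes class II and Cd86 from the surface, was at 29.3, 29.03, 29.4 and 29.4 FPKM, nearly equal in all 4 samples. Of the proteases that prepare peptides for class II, Ctss and Lgmn (asparagine endopeptidase, 1159 ± 69.2 FPKM) were above H2-Aa in every sample. Ctsl was near H2-Aa at 232 ± 13.3 FPKM, and the thiol reductase Ifi30 was at 190.3 ± 35.1 FPKM. Their inhibitors Cst3 and Cstb were at 853 ± 33.3 and 818 ± 30.6 FPKM, and Lamp1 at 1510.4 ± 113 FPKM.

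Among genes of the B7 family, those of 2 inhibitory proteins were higher than the co-stimulatory ones. Cd274, which encodes PD-L1, had 152, 153, 119 and 103 FPKM, and Vsir, which encodes the checkpoint protein VISTA, had 93.98, 93.6, 104 and 103 FPKM. The co-stimulatory gene Cd86 had 56.8, 55.1, 61.9 and 57.3 FPKM, and Cd80 had 11.99, 10.6, 10.7 and 10.1 FPKM. Cd274 exceeded Cd80 by 10.2 to 14.5 times in a sample, and both Cd274 and Vsir were above Cd86 in every sample. Icosl, the ICOS ligand, was at 17.2 ± 0.464 FPKM, the adhesion gene Icam1 at 59.9 ± 2.88 FPKM and Pdcd1lg2, which encodes PD-L2, at 0.512 FPKM. The T cell genes Cd28 and Havcr2 (TIM-3, which myeloid cells also carry) were detected at 10.8 and 12.1 ± 0.598 FPKM.

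Of 246 transcription factor and associated genes with a value, 192 were detected, at a median of 14.9 ± 0.308 FPKM. Its median was lower than that of the other classes among detected genes, but with undetected members counted it was 10.8 FPKM, above the 2.77 FPKM of the cytokine class. Of the detected factors, 15, or 7.81%, reached 100 FPKM, near the 7.36% of all detected genes. Irf7, the factor that amplifies type I interferon, stood apart with 1325, 1337, 1347 and 1330.5 FPKM (rank 39) and was the only listed factor among the 100 most abundant genes. It exceeded Irf3, the factor that starts the interferon response, by 55.2 to 69.1 times. Stat2, which carries the interferon signal, was at 159.8 ± 9.25 FPKM, and its partner Irf9 at 62.5 ± 2.22 FPKM. Irf5 was at 135 ± 5.33 FPKM, Irf1 at 94.3 ± 1.53 FPKM and Stat6, the IL-4 signal transducer, at 94.2 ± 3.84 FPKM.

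Among myeloid factors, Spi1, which encodes PU.1, the master factor of the myeloid line, had 348, 352, 345 and 347 FPKM. Maf, a factor of macrophage identity, had 104, 100.4, 111 and 106 FPKM. Nfe2l2, which encodes the antioxidant regulator Nrf2, was at 176 ± 5.83 FPKM, Klf6 at 109 ± 13.5 FPKM, Lmo2 at 107 ± 6.59 FPKM, Id2 at 99.1 ± 2.27 FPKM, Cebpb at 75.02 ± 3.45 FPKM and Cebpa at 55.2 ± 1.84 FPKM. Tfe3, Tfeb and Mitf, which drive lysosomal genes, were at 70.4 ± 1.201, 24.1 ± 0.793 and 14.05 ± 0.734 FPKM.

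All 11 genes of the NF-kB family and its inhibitors were detected, at 5.997 to 60.8 FPKM. Rela was highest at 60.8 ± 0.761 FPKM, followed by the inhibitors Nfkbia (48.4 ± 3.27 FPKM) and Nfkbib (39.3 ± 2.11 FPKM). Stress-linked factors led the AP-1 and ATF list, with Atf4 at 167 ± 5.56 FPKM, Atf3 at 143 ± 19.1 FPKM and Ddit3, which encodes CHOP, at 117 ± 9.41 FPKM. Fos and Jun, which rise in minutes when cells are handled, were at 15.9 ± 0.831 and 33.7 ± 2.83 FPKM. Of 32 nuclear receptor genes 21 were detected, at a median of 10.8 FPKM, near that of all detected genes. The lipid-sensing receptors Nr1h2 and Nr1h3 (LXR beta and alpha) were at 55.02 ± 2.58 and 20.1 ± 3.797 FPKM, their partners Rxra and Rxrb at 35.3 ± 1.93 and 22.95 ± 0.883 FPKM and Pparg at 16.9 ± 1.77 FPKM. Of the remaining factors, the chromatin protein Hmga1 was at 426 ± 14.8 FPKM, Usf2 at 112 ± 10.2 FPKM, Ctnnb1 at 99.5 ± 8.51 FPKM, Hif1a at 32.4 ± 0.313 FPKM and Myc at 8.49 ± 2.12 FPKM.

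Interferon-stimulated genes, listed apart from the receptors and factors, were high as a group. All 44 with a value were detected and 33 reached 100 FPKM, with a median of 165 FPKM and the lowest, Ifitm1, at 3.41 ± 0.898 FPKM. Beside Ifitm3 and Bst2 the highest was Ifit3 at 769, 782, 728 and 685 FPKM, with its near copy Ifit3b at 214 ± 31.3 FPKM. Isg15, a ubiquitin-like modifier, was at 451, 488, 434 and 414 FPKM. Rsad2, the antiviral enzyme viperin, had 446, 439, 322 and 271 FPKM and was higher in replicates 1 and 2 than in replicates 3 and 4. Interferon acts on these genes through promoter elements read by the STAT and IRF factors above, which is why their upstream sequence was searched. The motif GAAANNGAAA was searched on either strand within 250 bases before a start site. It was in the promoters of 19 of the 36 list genes with an entry (52.8%), against 3.46% of all 27025 RefSeq promoters. Some list genes are near copies of each other, so their promoters are not independent. Among the 100 most abundant genes of the cultures it was in 11.5% of 78 with an entry. The 150 bases before the start of 3 list genes and the 80 before that of Irf7 are shown with their matches (RefSeq, GRCm38.p6; Isg15 at chr4:156200819-156200968, minus strand; Ifit3 at chr19:34583379-34583528, plus strand; Rsad2 at chr12:26456453-26456602, minus strand; Irf7 at chr7:141266425-141266504, minus strand; capitals mark GAAANNGAAA or its reverse complement, and in Irf7 the letters TATAAA).
Isg15: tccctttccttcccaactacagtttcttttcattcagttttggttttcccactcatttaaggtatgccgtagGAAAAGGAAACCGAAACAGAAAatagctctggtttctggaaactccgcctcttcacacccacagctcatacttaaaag
Ifit3: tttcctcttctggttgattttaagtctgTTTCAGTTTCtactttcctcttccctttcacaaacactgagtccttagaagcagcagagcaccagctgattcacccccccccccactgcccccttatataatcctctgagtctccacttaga
Rsad2: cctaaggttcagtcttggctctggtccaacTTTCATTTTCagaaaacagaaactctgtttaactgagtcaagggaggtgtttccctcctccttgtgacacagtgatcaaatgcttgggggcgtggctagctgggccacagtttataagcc
Irf7: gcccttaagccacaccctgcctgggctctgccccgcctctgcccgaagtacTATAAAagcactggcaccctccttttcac
Isg15 held 3 overlapping matches and Ifit3 and Rsad2 a single one each in these stretches, and the TATAAA of Irf7 began 29 bases before the start. TATAAA, on either strand, was in 17.9% of the promoters of the 100 most abundant genes, 7.51% of those of all detected genes and 14.3% of all promoters. GAGGAAGT, a sequence that PU.1 can bind, was in 3 of 78 promoters of the top 100 (3.85%). It was in 3.36% of those of all detected genes and 2.79% of all promoters. A match is a string of letters and was not tested for binding, and the motifs can overlap in a promoter.

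Genes linked with tolerance ranged widely. Of 37 with a value, 31 were detected. Below Gpnmb, the galectins and Axl, Anxa1 was at 279 ± 48.8 FPKM, Hmox1, the heme oxygenase gene, at 224 ± 24.7 FPKM, Fgl2 at 133 ± 7.44 FPKM, Acod1, the itaconate-forming enzyme, at 93.8 ± 13.8 FPKM and the ectonucleotidase gene Entpd1 at 85.7 ± 8.19 FPKM. Ido1 (0.03 FPKM), Nt5e (0.035 FPKM) and Aldh1a2 (0.04 FPKM), other genes known for restraint of T cells, were near 0, and Nos2 was at 2.14 ± 0.659 FPKM. Glycolysis genes were led by Gapdh (1007 ± 45.7 FPKM), Aldoa (588 ± 26.9 FPKM) and Pkm (396 ± 16.4 FPKM).

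Of the genes named in the title of the series, Suclg2, the GTP-specific beta subunit of succinyl-CoA ligase, had 4.68, 4.69, 4.56 and 4.43 FPKM and ranked 7625, and Lactb had 12.7, 13.8, 11.3 and 11.7 FPKM and ranked 4787. The alpha subunit gene Suclg1 exceeded Suclg2 by 6.93 ± 0.28 times in these cultures, and the ATP-specific beta subunit gene Sucla2 was at 14.8 ± 1.31 FPKM.

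The spread of a gene over the 4 samples was small for most genes. The coefficient of variation (CV, the SD as a share of the mean) had a median of 7.34% over the detected genes, with quartiles at 4.55% and 11.7%. It was 9.87% for means of 1 to 10 FPKM and 5.703% for means of at least 100 FPKM. The 5 steadiest genes among those of at least 100 FPKM were the phosphatase gene Ptp4a2 (CV 0.253%), Ubb (0.353%), Sh3glb1 (0.509%), Tmbim6 (0.559%) and the GTPase gene Cdc42 (0.579%). Irf7 and Psap had CVs of 0.712% and 0.695%.

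The most variable named genes of at least 10 FPKM differed between the same pairs of samples. The ribosomal protein gene Rps27 had 185, 188, 404 and 723 FPKM in replicates 1 to 4, a CV of 67.6%, and its reads can be shared with pseudogenes. The Fc receptor-like gene Fcrls had 22.9, 22.3, 46.4 and 53.2 FPKM, the collagenase gene Mmp13 22.8, 22.03, 11.3 and 10.96 FPKM and the lectin gene Clec10a 9.000, 8.19, 16.4 and 16.8 FPKM. The cyclin gene Ccnd1 had 19.03, 20.3, 9.54 and 10.7 FPKM and the proteoglycan gene Bgn, a stroma marker, 27.1, 35.5, 14.04 and 21.8 FPKM. With Cyp4f18, Ang, Psme2b and Tpr these made up the 10 most variable, and in all 10 replicates 1 and 2 lay on one side of replicates 3 and 4, 5 with replicates 3 and 4 higher and 5 with them lower. Among the detected class II and regulator genes, 11 of 13 were higher in both replicates 3 and 4 and none was lower in both. Of 83 ribosomal protein genes 57 were higher in both and 1 was lower, and of 44 interferon-stimulated genes 5 were higher and 25 lower. Over all 5445 genes of at least 10 FPKM, 1978 were higher in both and 1552 lower. The share separated either way was 84.6% for class II, 69.9% for ribosomal and 68.2% for interferon-stimulated genes. It was 64.8% for those 5445 genes, so the latter 2 lists differed from them mainly in direction. A high share was not particular to class II. The share was 85.7% for the detected macrophage markers, 83.3% for the 30 most abundant genes and 78% for the 100 most abundant. Stroma marker sums were lower in replicates 3 and 4 than in replicates 1 and 2, and their part in these differences was not tested.

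**Figure D5:**
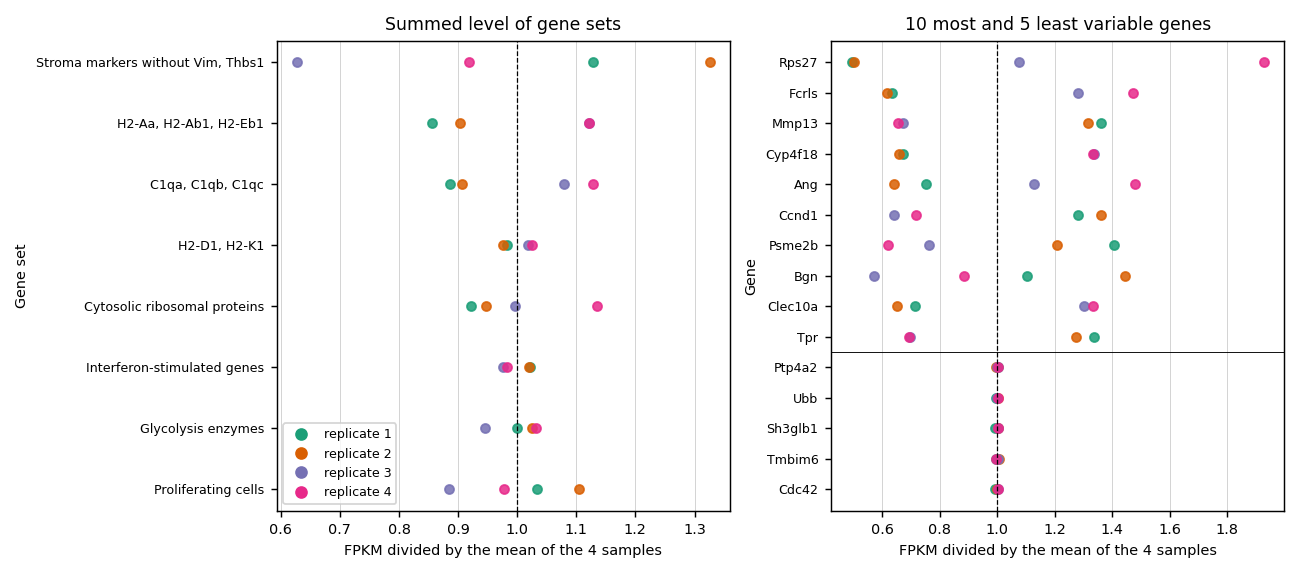
FPKM of each si-nc sample divided by the mean of the 4 samples, for summed gene sets (left) and for the 10 most and 5 least variable genes (right); colours are replicates and the dashed line is the mean. Replicates 1 and 2 lie on one side and 3 and 4 on the other for the 10 variable genes, while the 5 steady genes show almost no spread.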

How the data were processed

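Per the labels' protocols, the sequencer was an Illumina HiSeq. Genome builds GRCm38.p4 and mm10 were named per the submitters' processing notes; which aligner, counter and gene models made the values is not given in the sources used here. A table with a value per gene and sample was deposited by the authors, and its values are taken here as FPKM. The header names no unit. Among 538 genes with 1 annotated transcript and a 0 in some sample, the smallest non-zero value fell with transcript length (Spearman rho -0.703 over these non-independent genes), while its product with length in kilobases stayed between 0.0497 and 0.0593 over 5 length classes. The depth is unstated, and counting intervals are therefore left out. TPM would also scale with length. The log2 fold change and the DEGseq p-values and q-values of the authors' deposited table, and the si-Suclg2 columns, were not used.

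Means, SDs, ranks and shares were computed with pandas 2.3.3 and numpy 2.4.6 in Python 3.11.15. In 22 rows the symbol, turned into a number by a spreadsheet, was restored through the gene ID. The table listed 0 mitochondrially encoded genes, so shares leave these out. The calculation was tested on simulated data. Members and lists (54, holding 1152 distinct genes with a value) were chosen with earlier results of these data known. Named genes were the 30 most abundant, the 3 highest of each list, marker genes (those below 1 FPKM mostly as a range), the 10 most and 5 least variable and the Suclg2 group; further genes and 2 of the 3 motifs were chosen after values were seen. Some genes under this rule are not reported here. Alternatives tried were scaling to a common column sum, medians in place of means, other thresholds, no filter, and leaving out each replicate.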

Additional observations from a re-analysis of the deposited data

Results flagged for a closer look

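The gap between the highest or lowest sample and the nearest other one, as a share of the range of the 4 si-nc samples, was compared with Dixon's critical value for 4 samples. Of the 339 quantities examined, mostly levels of single named genes with a mean of at least 1 FPKM, 4 exceeded it. Chance alone would flag about 1 in 20 groups, so the 4 were fewer than that share and are given for description only. That share holds for 4 independent values, whereas replicates 1 and 2 often lay on one side of replicates 3 and 4. Tnfrsf1b, the TNF receptor gene, was high in replicate 3 (gap share 0.902), with 272, 274, 291 and 274 FPKM in replicates 1 to 4. Ifnb1, the interferon beta gene, was low in replicate 1 (gap share 0.850), with 2.54, 3.39, 3.54 and 3.41 FPKM. S100a8, a neutrophil marker, was high in replicate 4 (gap share 0.865), with 1.02, 1.02, 0.9 and 1.79 FPKM. Gprasp1, named only for its place at the 1 FPKM level, was low in replicate 4 (gap share 0.931), with 1.06, 1.07, 1.08 and 0.79 FPKM.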

How the results depend on the processing

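Ranks and shares moved little with the processing. Scaling each column to the mean column sum, or taking medians over the 4 samples, left every class median and share within 1 SD over samples. With each replicate left out in turn, the detected genes numbered 10088 to 10144, the share of the top 10 genes was 18.2% to 18.5% and that of the top 100 was 39.8% to 40.2%. The class medians were then 30.8 to 33.3 FPKM for receptors, 22.7 to 24.7 FPKM for cytokines, 82.8 to 92.9 FPKM for antigen presentation and 14.6 to 15.4 FPKM for transcription factors. Of these 4 medians, 3 moved by more than 1 SD over samples without replicate 1. The number was 1 without replicate 2 and 3 without replicate 4, and none did without replicate 3. Without ribosomal protein genes the total was smaller, and the top 10, which had no such gene, held 19.7%. The top 100 then held 42.0%, with other genes in place of its 20 ribosomal protein genes. With undetected members counted, the class medians fell to 14.6 FPKM for receptors, 2.77 FPKM for cytokines, 65.4 FPKM for antigen presentation and 10.8 FPKM for transcription factors, so the order of receptors above cytokines above transcription factors held only among detected genes. The number of detected genes was 10814 at a level of 0.5 FPKM, 7416 at 5 FPKM and 9838 when 1 FPKM was asked of every sample. For the 54 lists, scaling, medians over samples and the 4 leave-outs gave 324 list medians, of which 22 moved by more than 1 SD over samples. Counting undetected members moved list medians further, to 0.82 FPKM for chemokine receptors, 6.87 FPKM for growth factors and 1.14 FPKM for interleukins. No paired analysis was possible because a single group was described. The depth of the libraries is not stated, so values below 1 FPKM are given without a counting error and carry the rounding of the table to 2 decimals.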

Other observations

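Housekeeping and metabolic gene groups took a large part of the transcript pool. The 83 detected cytosolic ribosomal protein genes held 6.69 ± 0.482% of the summed FPKM, led by Rps24 (1406 ± 160.04 FPKM), Rpl10 (1012 ± 88.4 FPKM) and Rpl41 (939.8 ± 69.4 FPKM). The summed level was 31912, 32765, 34437 and 39259.6 FPKM in replicates 1 to 4, lowest in replicate 1 and highest in replicate 4. Of translation factors, Tpt1 and Eef2 followed Eef1a1, at 1311 ± 155 and 553 ± 9.12 FPKM. The chaperone genes Hspa8 and Hsp90ab1 led the list of immediate early and handling stress genes at 956 ± 25.4 and 414 ± 30.6 FPKM. The iron and heme list held 5.99 ± 0.311%, nearly all of it ferritin. Outside ferritin, the biliverdin reductase gene Blvrb was at 143 ± 5.07 FPKM, the phagosomal metal transporter Slc11a1 at 112 ± 0.979 FPKM and the iron exporter Slc40a1 at 76.6 ± 5.62 FPKM. Tfrc, which brings iron in, was at 5.55 FPKM, below each of these.

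Lipid handling genes held 4.41 ± 0.191%. After Apoe and Psap came the fatty acid binding protein gene Fabp5 (1533 ± 100.1 FPKM), the lysosomal cholesterol carrier Npc2 (760.4 ± 11.2 FPKM), the lysosomal lipase Lipa (472 ± 31.1 FPKM) and the phospholipid transfer protein gene Pltp (436 ± 69.4 FPKM). Apoc2, a neighbour of Apoe in the genome, had 82.2, 87.7, 139 and 168 FPKM and, like Apoe, was higher in replicates 3 and 4 than in replicates 1 and 2. Scd1, a desaturase that forms monounsaturated fatty acids, was below 1 FPKM. Complement genes beyond C1q included C3 at 477 ± 58.9 FPKM, Cfb at 338 ± 23.1 FPKM and Cfp at 194 ± 16.8 FPKM, so that components of both the classical and the alternative pathway were detected, while the acute-phase gene Saa3 was at 339 ± 80.2 FPKM.

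Predicted genes and pseudogenes held little of the pool. Genes typed as protein-coding in RefSeq made up 99.3% of the summed FPKM of detected genes. The highest row without a RefSeq entry, LOC100862446, had 1042, 1056, 553 and 414 FPKM in replicates 1 to 4, with replicates 1 and 2 above replicates 3 and 4.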
